A study of Rattus norvegicus with 16 samples.

Results

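Endoplasmic reticulum (ER) stress genes were examined in isolated rat pancreatic islets that carried a PPARγ adenovirus or a null adenovirus. The 10 genes were Hspa5, Hsp90b1, Pdia4, Dnajb9, Xbp1, Atf4, Ddit3, Atf3, Trib3 and Asns. They were chosen by name, as all probe sets whose annotated symbol is one of these genes, which gave 12 of the 15923 probe sets on the array and 10 of its 10412 named genes. Trib3 had 3 probe sets and each of the other genes had 1, and none was annotated with more than 1 gene. All 12 passed the filter on low values. No gene of the 10 passed the test with the virus, with the agonist or with both together. In an F test added after the values were seen, the spread of 6 of the 10 within groups went with the replicate number. That test called 33.3% of all tested probe sets. Xbp1 alone of the 10 had arrays that did not overlap between the viruses within either treatment. Of all tested probe sets, 4.56% had every PPARγ virus array above every null virus array with GW347845, and 2.45% with vehicle. These shares cover that direction alone, while the genes were screened in either direction. The share with that order in both treatments was not counted.

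PPARγ is a nuclear receptor that switches on lipid handling genes in adipocytes, and GW347845 is an agonist of it. The 4 groups were the PPARγ virus with 200 nM GW347845 (4 arrays), the PPARγ virus with vehicle (4 arrays), the null virus with 200 nM GW347845 (3 arrays) and the null virus with vehicle (3 arrays). All islets received virus at 50 particles a cell for 32 h and were then kept for 16 h in GW347845 or in vehicle, 0.004% DMSO, so the null virus with vehicle is itself an infected control. The labels give neither the promoter of the viral PPARγ nor the strain or age of the animals. Nor do they state that the replicates came from different islet preparations, so p-values measure the spread between these arrays, which may be technical. One further column of each null virus group, replicate 2, held identical values under conflicting labels and was left out.

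The deposited value is 1 intensity per probe set and array, with array medians from 56.4 to 67.5. Intensities of different probe sets are not on a common scale, so each gene was compared with itself alone. Pparg averaged 5510 ± 640 and 5593 ± 582 (SD, n = 4 each) with the PPARγ virus, against 35.8 ± 13.7 and 33.0 ± 5.74 (SD, n = 3 each) with the null virus, GW347845 before vehicle. Beta cell transcripts were high in every array, with Ins1 at 4626.9 to 7093.1 and Ins2 at 3313.5 to 4421.2. Of the 11 acinar genes on the array 3 passed the low-value filter, and the acinar list summed to 273 to 593 and 229 to 508 with the PPARγ virus, against 210 to 647 and 209 to 570 with the null virus. Islets hold several cell types, and in such bulk RNA fewer cells of a type and less RNA per cell cannot be told apart.

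Beta cells fold large amounts of proinsulin in the ER. When unfolded protein builds up there, the sensors IRE1, PERK and ATF6 start the unfolded protein response: IRE1 splices Xbp1 mRNA, ATF6 is released as a transcription factor, and PERK phosphorylates eIF2α, which slows protein synthesis while favouring translation of Atf4. XBP1 and ATF6 raise ER chaperones, and ATF4 raises Ddit3, Trib3, Atf3 and Asns, a branch that amino acid shortage also reaches through another eIF2α kinase.

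The response works through short promoter elements, so the 200 bases before the start of 4 genes are shown, from RefSeq on the rat build GRCr8, each on the strand of its gene and written 5′ to 3′. Hspa5 lies at chr3:38452816-38453015 on the plus strand, Hsp90b1 at chr7:23012294-23012493 on the minus strand, Xbp1 at chr14:84604423-84604622 on the plus strand and Trib3 at chr3:161275534-161275733 on the minus strand. Capitals mark the fixed letters of an ER stress element in Hspa5, Hsp90b1 and Xbp1, and of a C/EBP-ATF core in Trib3.
Hspa5: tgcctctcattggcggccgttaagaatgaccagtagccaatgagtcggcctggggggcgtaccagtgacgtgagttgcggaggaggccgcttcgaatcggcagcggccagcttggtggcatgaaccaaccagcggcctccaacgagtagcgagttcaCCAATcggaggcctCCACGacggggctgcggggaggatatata
Hsp90b1: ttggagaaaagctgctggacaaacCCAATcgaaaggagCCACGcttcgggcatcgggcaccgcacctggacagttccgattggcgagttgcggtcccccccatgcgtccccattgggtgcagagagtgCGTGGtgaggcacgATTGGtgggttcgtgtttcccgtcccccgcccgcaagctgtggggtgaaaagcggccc
Xbp1: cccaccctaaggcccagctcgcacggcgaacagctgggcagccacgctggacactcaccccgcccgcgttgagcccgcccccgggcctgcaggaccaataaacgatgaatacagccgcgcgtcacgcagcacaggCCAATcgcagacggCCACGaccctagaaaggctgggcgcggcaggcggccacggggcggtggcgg
Trib3: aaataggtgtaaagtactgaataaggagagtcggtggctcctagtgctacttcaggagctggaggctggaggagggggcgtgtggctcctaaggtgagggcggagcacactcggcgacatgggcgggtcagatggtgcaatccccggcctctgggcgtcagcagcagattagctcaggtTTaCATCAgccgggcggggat

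The ER stress element is the site through which ATF6 and XBP1 raise chaperone genes. It was searched as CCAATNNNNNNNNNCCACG on both strands, from 250 bases before to 50 after the start. It was found in 3 of the 9 genes with a promoter entry, against 22 of 33469 promoters in all (0.0657%). It lay at -43 to -25 from the start of Hspa5, at -65 to -47 in Xbp1, and in Hsp90b1 at -176 to -158 and, on the opposite strand, at -72 to -54. The C/EBP-ATF core TGATGNAA, through which ATF4 and its partners act, was found in 1 of the 9, Trib3, at -21 to -14 on the opposite strand, and in 3.98% of all promoters. The ERSE-II letters ATTGGNCCACG (0.0508% of all promoters), the UPRE core TGACGTGG (0.595%) and the PPAR direct repeat AGGTCANAGGTCA (0.0538%) were found in none of the 9 windows. No marked stretch overlapped another, and a match describes letters, not binding.

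The combined comparison set the PPARγ virus with GW347845 against the null virus with vehicle, the receptor and its agonist together against the double control. Of the 10 genes 0 passed limma's test at an adjusted p of 0.05, where 0.665% of the 10078 tested probe sets passed. Xbp1 was the 1 gene with an unadjusted p under 0.05. The median log2 change of the 10 genes was 0.05, with 7 above 0, beside -0.03 over all tested probe sets. Their log2 changes ran from -0.23 for Trib3 to 0.29 for Ddit3, and the lowest adjusted p was 0.567.

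**Figure D1:**
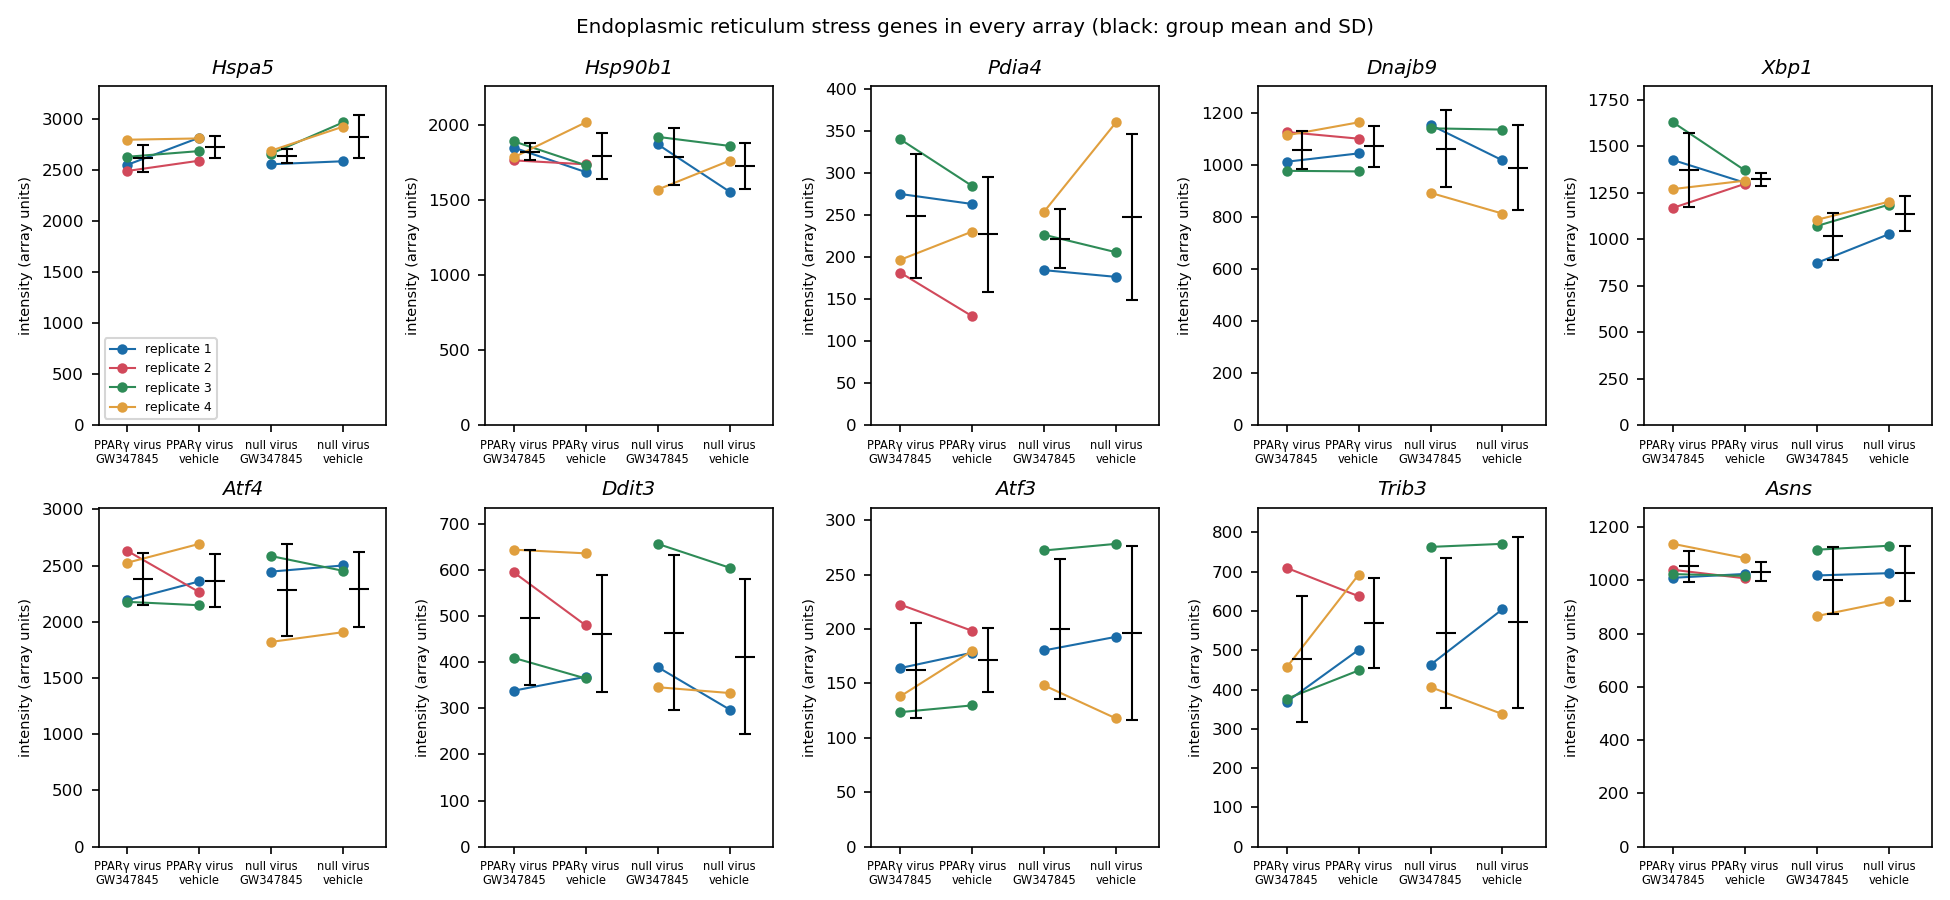
Deposited intensity (array units, from 0) of each gene's leading probe set in the 4 groups. Points are arrays, lines join arrays with the same virus and replicate number, and black marks give the group mean and SD (n = 4 with the PPARγ virus, 3 with the null virus). In Xbp1 all PPARγ virus points of a treatment lie above the null virus points of that treatment.

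Among the ER chaperones, Hspa5, Hsp90b1 and Dnajb9 had group means that lay close together. Hspa5 encodes BiP, the HSP70 chaperone of the ER and a common measure of ER stress. In order of replicate number, it read 2551.7, 2491.2, 2630.0 and 2797.1 with the PPARγ virus and GW347845, 2817.5, 2591.9, 2685.9 and 2809.9 with the PPARγ virus and vehicle, 2556.9, 2661.0 and 2690.6 with the null virus and GW347845, and 2586.2, 2967.4 and 2925.8 with the null virus and vehicle. The groups overlapped, and the highest of the 14 arrays was 1.19 times the lowest, the narrowest span of the 10 genes. The combined log2 change was -0.11 ± 0.07 (SE; limma adjusted p = 0.755), a 95% interval of 0.835-fold to 1.03-fold.

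Hspa5 read lower with GW347845 than with vehicle in each of the 7 pairs of arrays that share a virus and a replicate number. So did 1.37% of all tested probe sets and 0 of the other 9 genes. This count was chosen after the values were seen and covers that direction alone. The log2 differences of Hspa5 ran from -0.14 to -0.0066 with the PPARγ virus and from -0.16 to -0.016 with the null virus. In limma with the replicate number as a block the effect was -0.06 with the PPARγ virus (adjusted p = 0.771) and -0.10 with the null virus (adjusted p = 1.00), so neither passed. No gene of the 10 passed in that blocked fit, which called 0.397% of tested probe sets with the PPARγ virus, 0.0% with the null virus and 0.0496% in the interaction.

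Hsp90b1, the HSP90 chaperone of the ER, averaged 1822 ± 58.3 and 1793 ± 151 (SD, n = 4 each) with the PPARγ virus, against 1787 ± 190.0 and 1726 ± 156 (SD, n = 3 each) with the null virus, GW347845 before vehicle. Its combined log2 change was 0.08 ± 0.09 (SE; limma adjusted p = 0.902). Dnajb9, a J-domain co-chaperone of BiP, spanned 814.3 to 1165.4, and its combined log2 change was 0.11 ± 0.12 (SE; limma adjusted p = 0.902). The groups overlapped in both genes.

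Pdia4, a protein disulfide isomerase of the ER, varied more than the other chaperones. It read 275.0, 181.5, 340.1 and 196.7 with the PPARγ virus and GW347845, 263.1, 129.6, 284.5 and 230.3 with the PPARγ virus and vehicle, 184.4, 226.5 and 254.0 with the null virus and GW347845, and 176.4, 205.7 and 360.2 with the null virus and vehicle. With the PPARγ virus the lowest array was number 2 and the highest number 3 in both treatments, and with the null virus the highest was number 4 and the lowest number 1. The combined log2 change was 0.03 (limma adjusted p = 0.987), with a 95% interval of 0.662-fold to 1.57-fold, which holds changes in either direction.

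**Figure D2:**
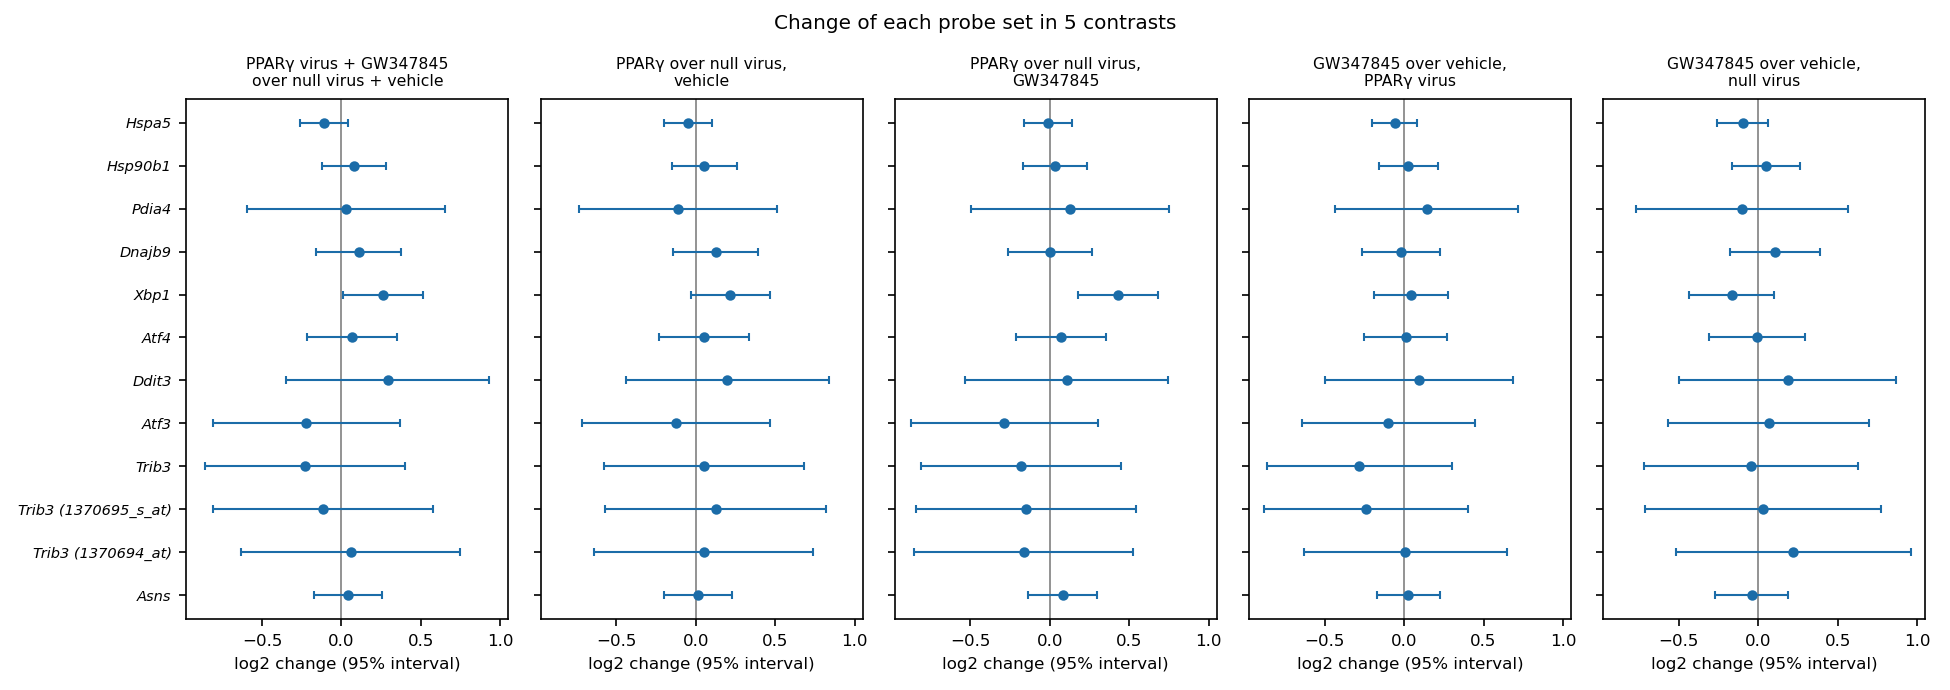
Log2 change of the 12 probe sets in 5 contrasts, with the group on top of each ratio named first above its panel. Points are limma estimates and bars are 95% intervals. Xbp1 is the probe set whose interval lies above 0, in the combined contrast (0.01 to 0.51) and in the virus contrast with GW347845 (0.18 to 0.68).

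Xbp1, the transcription factor that IRE1 activates, was the gene of the 10 whose arrays were ordered by virus. It read 1426.1, 1168.7, 1628.7 and 1269.9 with the PPARγ virus and GW347845, 1303.8, 1298.1, 1370.1 and 1315.0 with the PPARγ virus and vehicle, 873.0, 1071.3 and 1104.6 with the null virus and GW347845, and 1027.4, 1185.9 and 1201.9 with the null virus and vehicle. Within each treatment every PPARγ virus array was above every null virus array, an order that 4.56% of tested probe sets showed with GW347845 and 2.45% with vehicle. The shares in the opposite direction and in both treatments at once were not counted. Across treatments the groups overlapped, since PPARγ virus replicate 2 with GW347845 read below replicates 3 and 4 of the null virus with vehicle. The order by virus was not particular to Xbp1: Herpud1, a gene of the wider pathway described below, had it in both treatments too.

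By group mean, Xbp1 was highest with the PPARγ virus and GW347845 (1373 ± 200.5, SD, n = 4) and then with the PPARγ virus and vehicle (1322 ± 33.0, n = 4), the null virus and vehicle (1138 ± 96.5, n = 3) and the null virus and GW347845 (1016 ± 125, n = 3). The virus effect on Xbp1 was a log2 change of 0.43 ± 0.12 with GW347845 (SE; limma adjusted p = 0.147) and 0.22 ± 0.12 with vehicle (adjusted p = 1.00), and neither passed. Leaving out 1 array at a time moved it between 0.32 and 0.50 with GW347845 (adjusted p 0.0729 to 0.448) and between 0.15 and 0.26 with vehicle. Averaged over the treatments, in a test chosen after these values were seen, the virus effect was 0.32 ± 0.10 (SE; limma adjusted p = 0.492), and that test called 0 of the 10 genes and 0.119% of tested probe sets. The array gives 1 value for Xbp1 and none for its spliced form, so activity of IRE1 was not measured.

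Among duct cell markers, Krt19 and Krt18 are given first, chosen after their values were seen. Krt19 read 205.0 to 296.1 with the PPARγ virus and GW347845 and 66.5 to 138.7 with the null virus and GW347845, a log2 change of 1.36 ± 0.27 (SE; limma adjusted p = 0.0284). With vehicle the arrays of Krt19 overlapped, and the log2 change was 0.80 (limma adjusted p = 0.774). Krt18 read 1012.5 to 1311.3 with the PPARγ virus and vehicle and 869.1 to 922.1 with the null virus and vehicle, without overlap (limma adjusted p = 0.938). With GW347845 its arrays overlapped, at 968.3 to 1444.7 with the PPARγ virus and 885.4 to 979.3 with the null virus. Other duct markers did not share a direction. The log2 change by virus, GW347845 before vehicle, was 0.18 and 0.14 for Krt7, -0.04 and 0.10 for Krt8, and -0.34 and -0.20 for Spp1. The part of duct cells in the order of Xbp1 by virus was not tested.

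Over the 10 genes, the virus contrasts gave 0 calls with GW347845, where 0.705% of tested probe sets were called, and 0 with vehicle, where 0.0397% were called (limma). Xbp1 alone had an unadjusted p under 0.05 with GW347845, and 0 genes had one with vehicle. The median log2 change of the 10 genes was 0.05 in both, beside -0.03 with GW347845 and 0.00 with vehicle over all tested probe sets. The compound contrasts were read here without a block. They gave 0 calls with the PPARγ virus (0.0595% of tested probe sets called) and 0 with the null virus (0.0% called). In neither did 1 of the 10 genes reach an unadjusted p under 0.05 in that fit. With the replicate number as a block, the interval of the brightest Trib3 probe set lay below 0 with the PPARγ virus (values below). The test of whether the compound acted differently under the viruses also called 0 of the 10 and 0.0% of tested probe sets, with 0 of the 10 below an unadjusted p of 0.05. These contrasts share groups with one another, so their values stand side by side and are not separate evidence.

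None of the transcription factors of the PERK branch passed the test in any contrast. Atf4, whose product switches on the amino acid and stress genes of the branch, read 2191.9, 2630.7, 2177.7 and 2526.3 with the PPARγ virus and GW347845, 2360.2, 2263.5, 2147.7 and 2693.8 with the PPARγ virus and vehicle, 2447.0, 2584.8 and 1821.9 with the null virus and GW347845, and 2501.7, 2453.6 and 1908.2 with the null virus and vehicle. Replicate 4 of the null virus gave the lowest arrays of all in both treatments, and the groups overlapped. The combined log2 change of Atf4 was 0.06 ± 0.13 (SE; limma adjusted p = 0.949).

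Ddit3 encodes CHOP, a transcription factor tied to cell death under lasting ER stress. It read 338.0, 594.2, 409.0 and 643.4 with the PPARγ virus and GW347845, 368.1, 479.4, 364.4 and 635.5 with the PPARγ virus and vehicle, 389.1, 656.1 and 345.5 with the null virus and GW347845, and 297.1, 604.4 and 332.9 with the null virus and vehicle. Replicates 2 and 4 of the PPARγ virus and replicate 3 of the null virus were high in both treatments, and the groups overlapped. The combined log2 change was 0.29 ± 0.30 (SE; limma adjusted p = 0.884), a 95% interval of 0.786-fold to 1.90-fold. Ddit3 read higher with GW347845 than with vehicle in 3 of 4 pairs with the PPARγ virus and 3 of 3 with the null virus. The log2 effects were 0.09 and 0.18 (limma without a block, adjusted p = 1.00 for both). With the replicate number as a block the 95% intervals were -0.10 to 0.28 and -0.03 to 0.40.

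Atf3, a stress-induced factor of the ATF family, read 164.1, 222.4, 123.6 and 138.1 with the PPARγ virus and GW347845, 178.2, 198.3, 129.8 and 179.9 with the PPARγ virus and vehicle, 180.3, 272.1 and 148.2 with the null virus and GW347845, and 192.8, 278.2 and 117.8 with the null virus and vehicle. Replicate 3 of the null virus held the highest arrays of the 14, and replicate 4 with vehicle the lowest. The groups overlapped, with a combined log2 change of -0.22 ± 0.28 (SE; limma adjusted p = 0.908).

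Trib3 and Asns are targets of ATF4. Trib3 encodes a pseudokinase that binds ATF4 and AKT, and the brightest of its probe sets read 368.7, 709.7, 376.5 and 456.4 with the PPARγ virus and GW347845, 500.9, 637.6, 448.5 and 692.2 with the PPARγ virus and vehicle, 463.0, 763.0 and 406.2 with the null virus and GW347845, and 604.2, 770.8 and 337.5 with the null virus and vehicle. Replicate 2 of the PPARγ virus and replicate 3 of the null virus were high in both treatments, and the groups overlapped. The combined log2 change was -0.23 (limma adjusted p = 0.916; 95% interval 0.552-fold to 1.32-fold). The next brightest probe set gave -0.12 and the dimmest 0.06, so the 3 probe sets of Trib3 differed in sign and 0 of them passed. The first and second carry the maker's _s_at suffix, for probes that match several transcripts, so their values may include other transcripts. GW347845 over vehicle was also fitted with the replicate number as a block. With the PPARγ virus the brightest probe set gave -0.28 (95% interval -0.55 to -0.013, limma adjusted p = 0.541) and did not pass. The next brightest gave -0.24 (-0.54 to 0.05) and the dimmest 0.01 (-0.19 to 0.20). With the null virus the brightest gave -0.04 (-0.35 to 0.27).

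Asns, asparagine synthetase, was among the steadiest of the 10 genes. It spanned 866.5 to 1137.7 over the 14 arrays, and both ends lay in arrays numbered 4 with GW347845, the low one with the null virus and the high one with the PPARγ virus. In the combined comparison its log2 change was 0.04 ± 0.10 (SE; limma adjusted p = 0.957), a 95% interval of 0.886-fold to 1.19-fold.

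In 6 of the 10 genes the spread within groups went with the replicate number. Each number of a virus has 1 array with GW347845 and 1 with vehicle. Over both viruses the 7 pair means spanned 1.09 in Atf3, 1.04 in Trib3, 1.00 in Pdia4 and 0.91 in Ddit3 on the log2 scale, and 0.19 in Hsp90b1 and 0.14 in Hspa5. An F test of the replicate number within a virus, added after the values were seen, called 6 of the 10 genes (limma, adjusted over all tested probe sets), where 33.3% of all tested probe sets were called. Whether the share of the 10 genes differs from that background was not tested.

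The 6 genes were Ddit3 (adjusted p = 0.000363), Atf3 (0.00219), Trib3 (0.00449 for its brightest probe set, and all 3 passed), Pdia4 (0.00551), Atf4 (0.0120) and Dnajb9 (0.0134). Asns (0.0562), Xbp1 (0.0814), Hspa5 (0.322) and Hsp90b1 (0.562) did not pass that test. Replicate number took 96.0% of the within-group sum of squares of Ddit3 and 97.0% of that of Asns, which did not pass. It took 79.7% in Hspa5, 77.8% in Xbp1 and 41.0% in Hsp90b1, beside a median of 76.6% over all tested probe sets. Without replicate 4 of the null virus the test called 4 of the 10 genes, Atf3, Ddit3, Pdia4 and Trib3, against a background of 30.2%, and Atf4 and Dnajb9 no longer passed. Run on 1 virus at a time, Ddit3, Atf3 and Trib3 passed with the PPARγ virus (31.0% of tested probe sets called), as did Pdia4, and Ddit3, Atf3, Trib3 and Atf4 passed with the null virus (5.23% called).

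**Figure D3:**
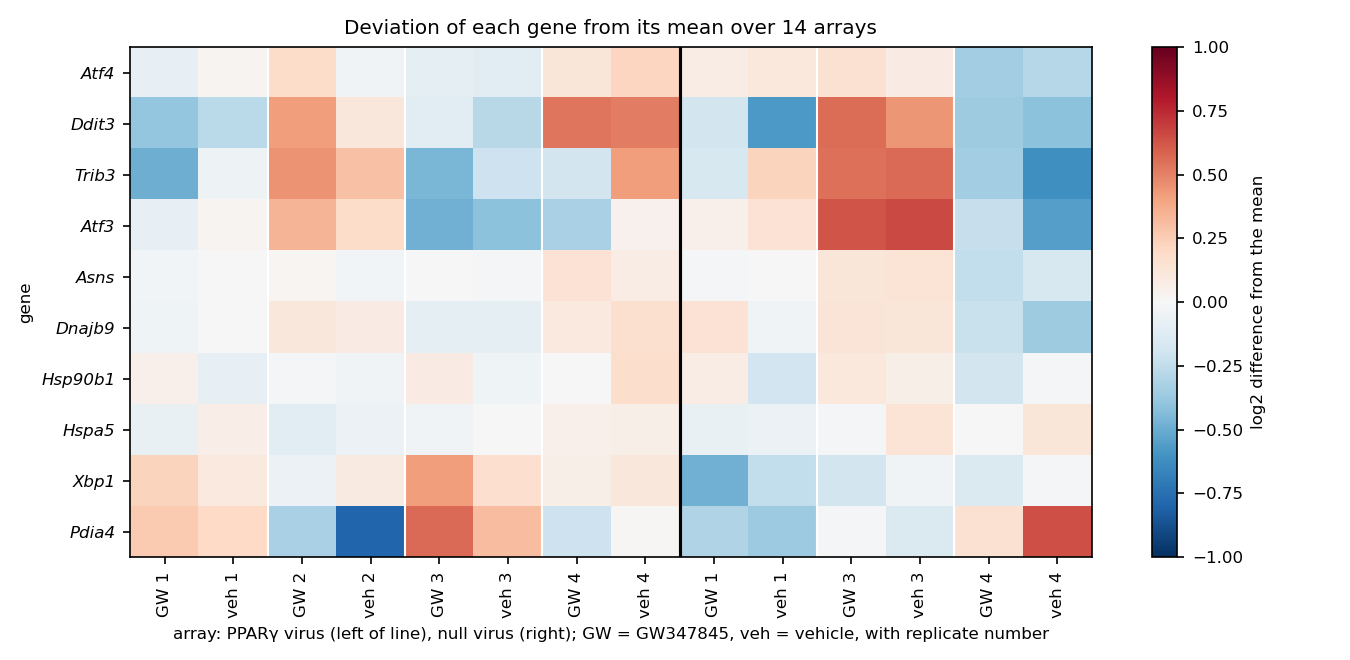
Log2 difference of each gene (rows, leading probe set) from its own mean over the 14 arrays (columns, PPARγ virus left of the line and null virus right of it, GW347845 before vehicle within each replicate number). Ddit3, Trib3 and Atf3 are above their means in replicate 2 of the PPARγ virus and replicate 3 of the null virus, and Pdia4 is lowest in replicate 2 of the PPARγ virus with vehicle.

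Several of the 10 genes were high in the same arrays, within the ATF4 branch and outside it. Of the 5 highest arrays of each gene, Ddit3 shared 5 with Asns, 4 with Atf4, 4 with Trib3 and 3 with Atf3. Trib3 shared 4 with Atf3, 4 with Asns and 3 with Atf4. The co-chaperone gene Dnajb9 shared 4 each with Ddit3, Trib3, Asns and Hsp90b1. Pdia4 ran the other way: it shared 0 of its 5 highest arrays with Ddit3, Atf4, Atf3 or Trib3, shared 4 with Xbp1, and 4 of its 5 highest were among the 5 lowest of Trib3. All genes were read from the same 14 arrays, so these counts describe the arrays and carry no test.

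Islet hormone genes also differed between replicate numbers. Gcg, the glucagon gene of alpha cells, read 3606.2, 180.8, 3910.6 and 1221.3 with the PPARγ virus and GW347845, 3788.0, 420.8, 4191.7 and 1231.3 with the PPARγ virus and vehicle, and 2621.2 to 3423.3 over the null virus arrays. Ppy, the pancreatic polypeptide gene, read 2689.2, 67.6, 2172.4 and 720.4 with the PPARγ virus and GW347845, 2884.4, 133.6, 2753.6 and 691.8 with the PPARγ virus and vehicle, and 917.7 to 3919.4 over the null virus arrays. Replicate 2 of the PPARγ virus, the lowest of that virus for Pdia4 and high for Trib3 and Ddit3, held the lowest arrays of all for both hormones. The same replicate also held the lowest arrays of all for Ins1 (4626.9 and 5067.1), Ins2 (3313.5 and 3492.2) and Iapp (3172.3 and 3254.6). The ratio of the 3′ to the 5′ probe set of beta-actin, a measure of RNA integrity, was 14.9 and 13.4 in that replicate (GW347845 and vehicle) and 14.5 in replicate 3 of the null virus with GW347845, and ran from 7.58 to 11.7 in the other 11 arrays. The same ratio of GAPDH did not follow that order: it was 9.22 and 8.36 in replicate 2 of the PPARγ virus (GW347845 and vehicle), 18.9 and 9.94 in replicate 3 of the null virus, and at most 12.6 in the other arrays.

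The 6 islet hormone and peptide genes summed to 11516 to 22560 and 12641 to 22604 with the PPARγ virus, against 17941 to 19805 and 16894 to 24644 with the null virus, GW347845 before vehicle. Duct markers, 5 of 6 above the low-value filter, summed to 4360 to 5056 and 4588 to 5305, against 4129 to 4775 and 3995 to 5247. Endothelial and stromal markers, 7 of 9 above the filter, summed to 2473 to 4203 and 2664 to 4732, against 2439 to 4461.5 and 2897 to 4393. Leukocyte markers, 5 of 8 above the filter, summed to 418.5 to 710.1 and 450.2 to 829.5, against 369.1 to 638.8 and 451.2 to 710.2. The group ranges of these sums overlapped, and no marker was listed at 0 in any array. The part of the hormone cells, of the other cell types and of RNA integrity in the spread of the ER stress genes was not tested.

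The wider pathway was described with 85 other genes in 8 lists, of which 76 were on the array and 72 were tested. In the combined comparison 0 of the 72 passed limma's test, and 7 had an unadjusted p under 0.05. None passed in any other contrast either, where 7 had an unadjusted p under 0.05 for the virus with GW347845, 2 for the virus with vehicle, 1 for the compound with each virus and 0 for the interaction. The genes named below are those with the lowest p in each list, through the probe set that gave it, and none passed.

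The ER stress sensors and their proteases had a median log2 change of 0.29 over 3 genes. Eif2ak3 (PERK) was at 0.31 and Mbtps1, a protease that frees ATF6, at 0.29, with the protease gene Mbtps2 below them. Eif2ak3 alone of the sensors was tested, and Ern1 (IRE1), Atf6 and Atf6b were not. The other chaperones had a median of 0.03 over 10 genes, with the lectin chaperone Canx at 0.16 and Creld2 at 0.22. The disulfide formation list had a median of -0.01 over 9 genes, with Pdia5 at 0.41 and Erp44 at -0.18, while the brightest probe set of Erp44 gave 0.08. The medians were thus close to the -0.03 of all tested probe sets in the last 2 lists. The median was higher in the sensor and protease list, which held 3 tested genes.

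ER-associated degradation returns misfolded proteins to the cytosol, and its list had a median log2 change of 0.10 over 11 genes. Herpud1, a component of that machinery, averaged 859 ± 127 with the PPARγ virus and GW347845 (SD, n = 4) and 631 ± 110 with the null virus and vehicle (SD, n = 3), a log2 change of 0.45 ± 0.17 (SE; limma adjusted p = 0.426), and Sel1l had one of 0.27. Every PPARγ virus array of Herpud1 (lowest 749.5) was above every null virus array (highest 747.7), across both treatments. This was seen after the values were known, and the share of tested probe sets with that order was not counted. The virus effect on Herpud1 was 0.56 with GW347845 (limma adjusted p = 0.205) and 0.42 with vehicle (adjusted p = 0.979), and neither passed. The translocon and signal peptidase list had a median of -0.05 over 13 genes, with Ssr3 at 0.27 and Sec63 at -0.33, while their brightest probe sets gave 0.04 and 0.16. The eIF2α kinases and phosphatase subunits had a median of 0.04 over 6 genes, with Eif2ak1 at 0.29 and Eif2ak4, the kinase for amino acid shortage, at 0.08.

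The other ATF4 and CHOP targets and partners had a median log2 change of 0.11 over 18 genes, with the amino acid transporter gene Slc7a5 at 0.35 and Cebpb at 0.52. Of the cell death list 2 genes were tested, the caspase gene Casp12 at -0.55 (limma adjusted p = 0.397) and Bcl2l11, which encodes the BH3 protein BIM, at 0.39 (adjusted p = 0.541). Casp12 averaged 35.4 ± 8.16 with the PPARγ virus and GW347845, below the low-value floor of 39.3, and 53.4 ± 8.32 with the null virus and vehicle, so its difference lies near the dim end of the array.

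**Figure D4:**
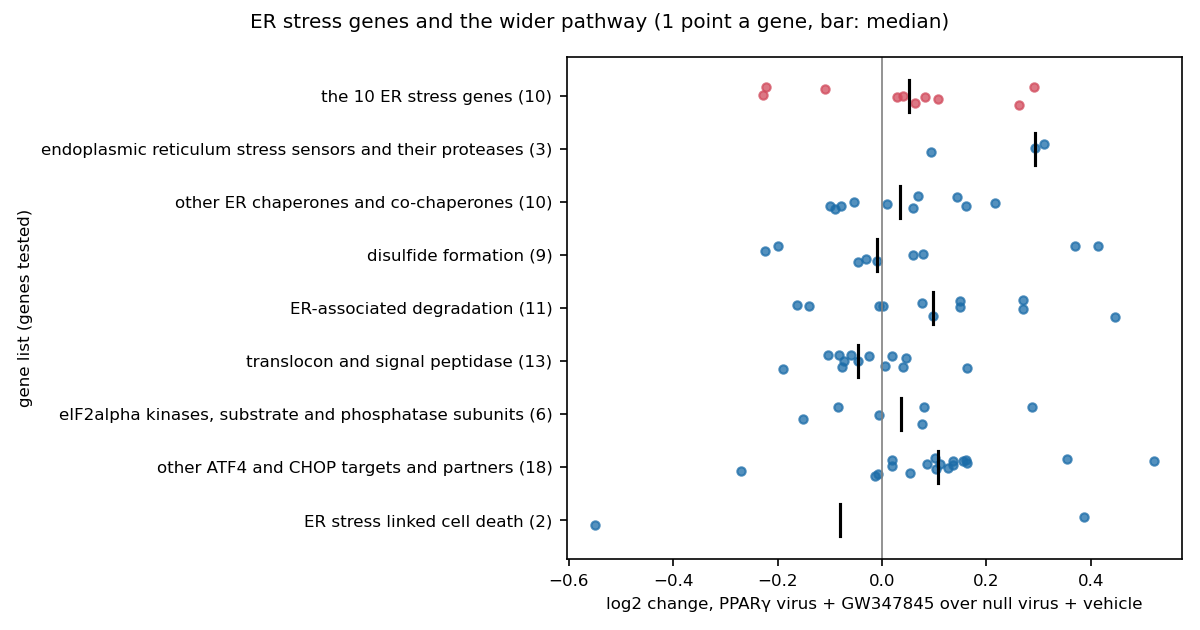
Log2 change, PPARγ virus with GW347845 over null virus with vehicle, of the 10 ER stress genes (top row) and of 8 wider lists, 1 point for each gene's brightest probe set and a bar at the median. Numbers in brackets are genes tested. The 10 genes lie between -0.23 and 0.29, and 0 of the points passed the test.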

How the data were processed

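RNA of isolated rat islets was read on 16 arrays, and 14 were used. The deposited values are intensity on a linear scale, 1 per probe set; the authors had scaled them so that the mean after trimming 2% at each end was 150.0 in every array, and no label or file used here names the software or build. The columns of replicate 2 of both null virus groups were identical and were left out. Arrays give no count depth, so their number limits the precision.

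Values were taken as log2(intensity + 4.6), the pseudocount being the 10th percentile of positive values, so fold changes of dim genes are understated. Probe sets above 39.3 (the 40th percentile) in at least 4 arrays were tested, 10078 in all. Group means were estimated in limma 3.58.1 (R 4.3.3) and moderated by empirical Bayes, trended on intensity, with Benjamini-Hochberg adjustment over all tested probe sets and a threshold of 0.05. The fit was tested on simulated data.

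Replicate numbers paired arrays within a virus: deviations from group means correlated at 0.44 to 0.70 over tested probe sets in all 7 same-numbered pairs. Across viruses the correlations ran from -0.14 to 0.43. A gene is led by its brightest probe set. The 10 genes, all of them reported, and the wider and marker lists were chosen with earlier results of these data known; of each wider list the 2 genes with the lowest p in the combined contrast are named. Other settings tried were the pseudocount, the filter, the trend, quantile normalisation, the replicate block, groups fitted alone, the left-out columns and leaving out each array. Promoters are those of RefSeq, build GRCr8; Atf3 was not matched. Figures were drawn with matplotlib 3.10.9.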

Additional observations from a re-analysis of the deposited data

Results flagged for a closer look

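Hsp90b1 in replicate 4 of the PPARγ virus with vehicle read 2017.5, while the other 3 arrays of that group lay between 1685.9 and 1737.9. The gap to its nearest neighbour, divided by the range of the group, was past the 95% limit of Dixon's test. It was the 1 value singled out in 24 such tests over the 12 probe sets and the 2 groups of 4 arrays, and chance singles out about 1 group in 20.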

How the results depend on the processing

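The count of called ER stress genes stayed at 0 in the 6 contrasts under every setting run but 1. With a replicate block over all groups, 1 gene was called for the virus with GW347845, Xbp1 (log2 change 0.47, limma adjusted p = 0.0375). So was 1 wider gene, Ero1a. That fit called 2.09% of all tested probe sets in this contrast, against 0.705% in the main fit. Same-numbered arrays of the different viruses correlated at 0.30 to 0.43 for number 1 but at -0.14 to 0.13 for numbers 3 and 4. The numbers thus did not pair arrays across viruses as a whole. A replicate block within each virus changed no call of these genes and gives no virus contrast. The wider count for the virus with GW347845 was also 1, Edem2, without both PPARγ virus arrays numbered 2 (chosen after seeing the data), and 0 to 1 with 1 array left out, the 1 being Edem2 without PPARγ virus replicate 2 with GW347845. The test of replicate number called 4 to 6 of the 10 genes with a replicate left out (22.8% to 33.6% of tested probe sets). It called 7 with quantile normalisation, which added Asns (30.5% of tested probe sets).

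Of the log2 changes of single genes, 241 of 250 kept their sign in the combined contrast and 241 of 260 in the compound contrast with the PPARγ virus, and the 9 and 19 that turned belonged to values that had not passed. With 1 array left out, the combined changes ranged from -0.035 to 0.11 for Asns, -0.54 to 0.066 for Atf3, -0.062 to 0.13 for Atf4, -0.026 to 0.21 for Dnajb9, -0.18 to 0.33 for Pdia4, -0.56 to 0.028 for Trib3, and, without a turn of sign, 0.095 to 0.60 for Ddit3, -0.17 to -0.073 for Hspa5, 0.0085 to 0.14 for Hsp90b1 and 0.18 to 0.34 for Xbp1. The compound changes with the PPARγ virus ranged from -0.012 to 0.049 for Asns, -0.26 to 0.016 for Atf3, -0.040 to 0.073 for Atf4, -0.048 to 0.26 for Ddit3, -0.062 to 0.023 for Dnajb9, -0.0022 to 0.084 for Hsp90b1, -0.10 to 0.27 for Pdia4 and -0.041 to 0.12 for Xbp1. The Atf4 change there was -0.0023 with quantile normalisation and -0.060 without both PPARγ virus arrays numbered 2. The causes were not tested. On the gene's strand alone the 3 genes with an ER stress element kept it and Trib3 lost its match.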

Other observations

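The F test of replicate number within a virus, added after the values were seen, called 26 of the 72 tested genes of the wider pathway, a share near that of all tested probe sets (33.3%; limma). These were 7 of 9 disulfide formation genes, 7 of 18 ATF4 and CHOP targets and 5 of 11 degradation genes. The rest were 3 of 13 translocon genes, 2 of 10 chaperones, 1 of 6 eIF2α genes and 1 of 2 cell death genes. Of the 3 tested sensor and protease genes 0 were called. Ero1b and Ppp1r15a are given below as examples, chosen after the values were seen. Ube2j1 (adjusted p = 0.000656) and Ero1a (0.00140) had lower values in that limma test. With the PPARγ virus, GW347845 before vehicle, Ube2j1 was highest in replicate 2 (414.6 and 409.4). Ero1a was lowest there in replicate 4 (463.4 and 473.5).

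Ero1b, the ER oxidase that is abundant in beta cells, read 2212.8, 1284.5, 2301.1 and 1815.0 with the PPARγ virus and GW347845, 2084.3, 1625.1, 2654.8 and 1814.2 with the PPARγ virus and vehicle, 2021.2, 2144.8 and 2409.0 with the null virus and GW347845, and 2084.4, 2026.5 and 2290.9 with the null virus and vehicle. Its adjusted p in the test of replicate number was 0.00254 (limma), and it passed in no contrast between groups. It was lowest in replicate 2 of the PPARγ virus in both treatments. Ppp1r15a encodes GADD34, the phosphatase subunit that restores protein synthesis. It read 219.7, 387.9, 214.2 and 301.9 with the PPARγ virus and GW347845, 312.7, 360.4, 220.9 and 346.5 with the PPARγ virus and vehicle, 319.2, 511.9 and 257.5 with the null virus and GW347845, and 377.1, 401.6 and 183.4 with the null virus and vehicle. Its adjusted p in the test of replicate number was 0.00414 (limma), and it passed in no contrast between groups. Within each group its highest array was replicate 2 with the PPARγ virus and replicate 3 with the null virus.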
